A study of Mus musculus with 9 samples.

Results

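A20, CYLD and the enzymes and adaptors that work with them remove, edit or read the ubiquitin chains through which Toll-like and TNF receptors signal. Their transcripts were followed in mouse small intestinal epithelial cells that had met LPS, the outer-membrane endotoxin of Gram-negative bacteria. The group holds 9 genes, named by symbol: Tnfaip3, Tnip1, Tnip2, Tax1bp1, Itch, Rnf11, Cyld, Otud7b and Neurl3. They are 9 of 18193 genes with a probe set of their own, and 25 of 45101 probe sets carried 1 of their symbols and no other. Where a gene has several probe sets, the brightest on average leads and the rest are described beside it. The genes were chosen by their function and with the measured log2 differences between conditions on these arrays known, among them those of Tnfaip3, Cyld and Neurl3. Their values are therefore a description, and their p-values restate a known pattern. The brightest probe set was selected on its mean over all 9 arrays, whatever their condition.

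The arrays are Affymetrix mouse arrays of the line m-ICcl2, with 3 arrays labelled as biological replicates in each of 3 conditions. The tolerant cells had 6 h of LPS of E. coli D31m4 at 100 ng/mL and then 90 h in medium free of LPS, 96 h in all. The 6 h LPS cells had the same dose for 6 h, and the unstimulated cells had none. All 9 arrays share the C57BL/6 background, the SV40 large T antigen transgene, whose promoter the labels do not name, and growth on collagen. The unstimulated arrays carry no culture time, so for tolerant cells, time in culture and earlier LPS cannot be told apart. Everything rests on 1 cell line, and nothing says what separated the replicates, so p-values measure the spread between these arrays.

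The processed intensities were made with GCRMA by the submitters and are given here as log2 levels. Low values crowd near a floor, and log2 4 was used as the level minimum. Where every array of the lower condition lay below it, the fold is a lower bound, the mean of the higher condition against log2 4. Of 18193 genes, 9431 reached log2 4 on at least 3 arrays and were tested with limma, with Benjamini-Hochberg adjustment over all of them. All 9 genes of the group were among these, but Neurl3 passed only through its 6 h LPS arrays and Tnip2 with 3 arrays, so their entry favours a difference.

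Replicate 1 stood apart in all conditions. On a principal component holding 30.9% of the variance the 3 arrays of replicate 1 lay on one side and the other 6 on the other. Beta-actin probe sets at the 3′ end exceeded those at the 5′ end, a gauge of RNA integrity, by log2 0.40 to 0.72 for replicate 1 and by 1.02 to 1.38 for replicates 2 and 3. For the 9 genes, fits with a replicate block are printed where they alter a call, and calls from replicates 2 and 3 alone are counted too. For the pathway lists described below, the block altered many calls, and these are given mainly as totals over all lists. Of 9 epithelial markers 6 passed the level minimum, while Cdh1, Krt19 and Cldn7 lay below log2 4 on all 9 arrays. The summed linear intensity of these 9 was 25349 to 29837 in tolerant, 17769 to 23766 in 6 h LPS and 19156 to 22466 in unstimulated cells. In tolerant against unstimulated cells 4 of the 6 rose (median log2 difference 0.71), against 14.0% of all tested genes. Epcam was among them, but it passed the level minimum only through its tolerant arrays. Its log2 means were 5.64 in tolerant, 3.04 in 6 h LPS and 3.03 in unstimulated cells. Of 10 leukocyte and macrophage markers, 7 lay below log2 4 on all 9 arrays, Ptprc (CD45) among them, and Cd68, Csf1r and Spi1 passed. That list summed to 1144 to 1477 in tolerant, 765 to 2119 in 6 h LPS and 1239 to 2465 in unstimulated cells. Its members moved in opposite directions in tolerant against unstimulated cells: Cd68, a lysosomal protein of macrophages, was 17.8-fold higher (limma adjusted p = 5.83e-06), while the macrophage receptor gene Csf1r was 3.85-fold lower (0.0232) and Spi1, a myeloid transcription factor, at least 1.94-fold lower (0.0181). All 8 fibroblast and all 4 endothelial markers lay below log2 4 on all 9 arrays. The fibroblast list summed to 51 to 52, 51 to 52 and 51 to 53 in tolerant, 6 h LPS and unstimulated cells, and the endothelial list to at most 28. The part of RNA integrity, replicate 1 or these marker shifts in the results was not tested, and a change in the share of cells and a change in RNA per cell cannot be told apart in bulk RNA.

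As background, binding of LPS by TLR4 makes ubiquitin ligases build non-degradative ubiquitin chains on signalling proteins, and these chains recruit the kinases that activate NF-kappa-B. A20, the product of Tnfaip3, edits or covers such chains and is itself a classic NF-kappa-B target gene, which closes a negative feedback loop. CYLD cuts the same kinds of chain. In the intestinal epithelium A20 is known to limit inflammation and epithelial cell death.

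Because NF-kappa-B sites at the gene start are the textbook route to Tnfaip3 induction, the 250 bases before the annotated starts were searched for the NF-kappa-B consensus of 10 bases on both strands. RefSeq promoter sequences (GRCm38.p6) matched 6 of the 9 genes. Those of Otud7b, Itch and Rnf11 are not used here. The consensus was found in 7.25% of 32851 promoter windows of this length, and in windows of Tnfaip3, Tnip1, Cyld and Neurl3. These 4 windows are shown because the genes that hold a match behaved differently on the arrays. Capitals mark the matched stretches, and each sequence runs 5′ to 3′ toward the start.
Tnfaip3, chr10:19015411-19015660, minus strand: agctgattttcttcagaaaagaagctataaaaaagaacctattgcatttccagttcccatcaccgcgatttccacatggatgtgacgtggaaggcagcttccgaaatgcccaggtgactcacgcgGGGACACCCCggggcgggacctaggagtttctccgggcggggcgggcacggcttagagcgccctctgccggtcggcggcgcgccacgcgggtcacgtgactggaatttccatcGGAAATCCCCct
Tnip1, chr11:54962941-54963190, minus strand: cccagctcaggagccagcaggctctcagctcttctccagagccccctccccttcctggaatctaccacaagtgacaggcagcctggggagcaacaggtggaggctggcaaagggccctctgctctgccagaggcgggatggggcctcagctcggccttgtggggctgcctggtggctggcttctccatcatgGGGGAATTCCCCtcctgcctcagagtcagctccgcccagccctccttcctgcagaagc
Cyld, chr8:88696778-88697027, plus strand: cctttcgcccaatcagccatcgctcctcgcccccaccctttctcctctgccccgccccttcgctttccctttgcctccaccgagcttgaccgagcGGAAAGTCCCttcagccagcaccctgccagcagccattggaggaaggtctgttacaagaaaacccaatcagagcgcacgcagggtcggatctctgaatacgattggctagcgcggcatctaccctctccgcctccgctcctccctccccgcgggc
Neurl3, chr1:36273426-36273675, minus strand: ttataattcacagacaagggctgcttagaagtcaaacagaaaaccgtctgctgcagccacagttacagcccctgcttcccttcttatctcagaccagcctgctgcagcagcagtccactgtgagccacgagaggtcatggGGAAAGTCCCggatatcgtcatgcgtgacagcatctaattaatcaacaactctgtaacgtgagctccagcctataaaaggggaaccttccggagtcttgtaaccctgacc
The stretch of Tnip1 is 12 bases long and holds 3 overlapping matches. Cyld and Neurl3 hold the same 10 bases, GGAAAGTCCC, the reverse complement of GGGACTTTCC, which in either orientation occurs in 0.14% of all windows. These bases were counted because both genes were seen to hold them, so that share only describes the stretch and tests nothing. The match lies 155 bases before the start of Cyld and 110 bases before that of Neurl3. The other annotated start of Tnfaip3, the single window of Tnip2 and both windows of Tax1bp1 held no match. A match describes letters and does not show that a factor binds there.

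The question put to the 9 genes was which were raised at 6 h of LPS, and whether the rise was lost or kept 90 h after LPS was taken away. Neurl3 was raised at 6 h and was back below the level minimum in tolerant cells. Tnfaip3, Cyld and Tax1bp1 were higher than in unstimulated cells at both times, with the call at 6 h made with the replicate block and the call in tolerant cells made without it. Without the block none of them passed at 6 h (limma adjusted p = 0.0625, 0.115 and 0.115). With it 11.6% of all tested genes were called higher at 6 h. Otud7b and Rnf11 were called in tolerant cells and not at 6 h, and Tnip1, Tnip2 and Itch passed no test in the fit of all 9 arrays without the block. The calls of Otud7b and Rnf11 are those of their brightest probe sets. No other tested probe set of either gene passed in tolerant against unstimulated cells without the block. In counts, 1 of 9 genes rose at 6 h against 0.0636% of all tested genes. That gene is Neurl3, which passed the level minimum only through its 6 h LPS arrays and was drawn with its difference known. The count is therefore a description, and with a filter at log2 5, which leaves Neurl3 out, it was 0. In tolerant against unstimulated cells 5 of 9 rose, against 14.0% of all tested genes. In tolerant against 6 h LPS cells 1 rose and 1 fell, against 7.10% and 6.02%, and the gene that fell is again Neurl3.

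**Figure D1:**
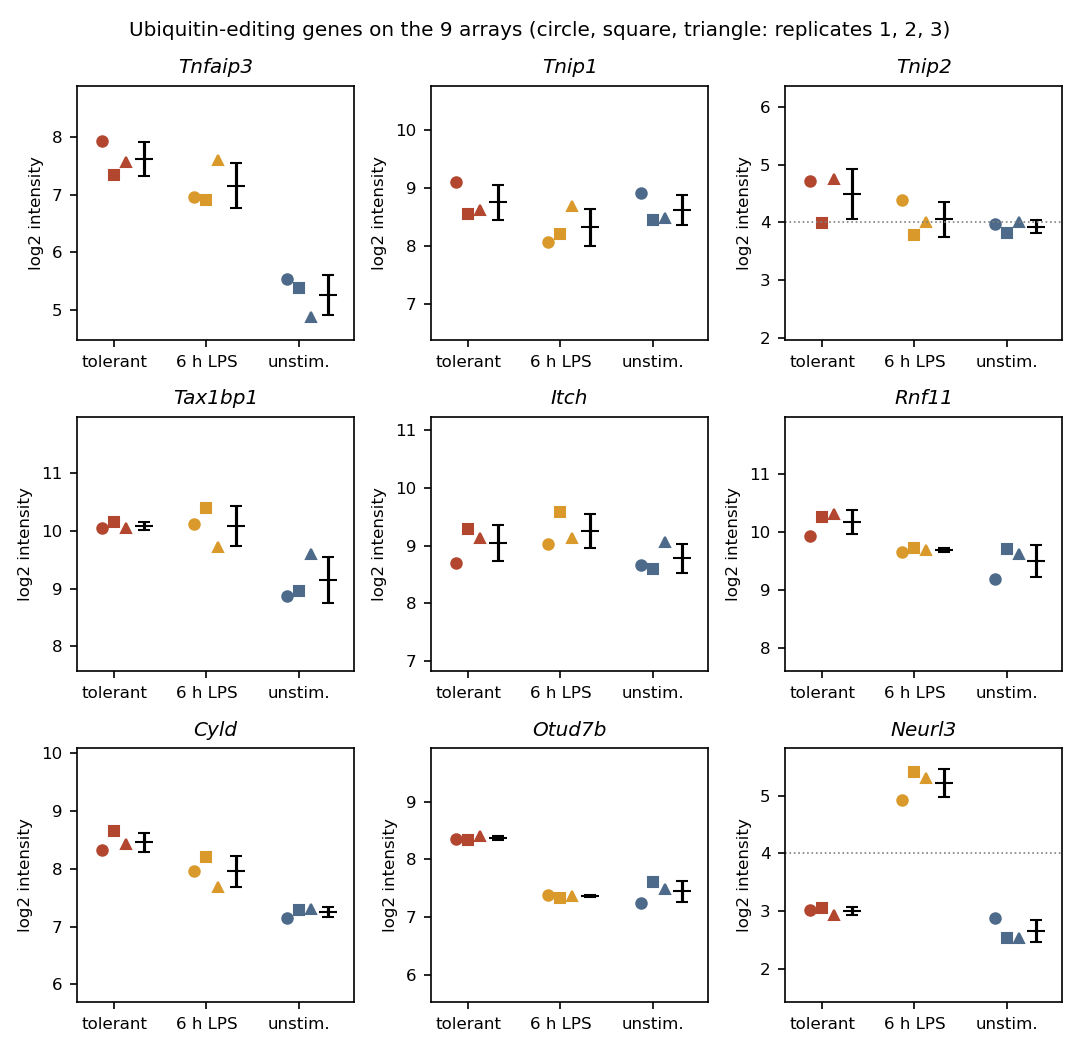
Log2 intensity of the 9 genes on each array, with tolerant, 6 h LPS and unstimulated cells from left to right in every panel; each panel spans the same log2 range, symbols mark the replicate, bars show mean ± SD (n = 3) and the dotted line marks log2 4. Neurl3 stands above log2 4 on its 6 h LPS arrays only, and Tnfaip3 is between 6.90 and 7.93 on all 6 LPS-exposed arrays against 4.88 to 5.54 in unstimulated cells.

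Tnfaip3 encodes A20, a deubiquitinase and ubiquitin ligase in 1 protein. Its log2 levels were 7.93, 7.34 and 7.57 in tolerant cells, 6.96, 6.90 and 7.60 in 6 h LPS cells, and 5.54, 5.39 and 4.88 in unstimulated cells (replicates 1, 2 and 3). All 6 arrays of LPS-exposed cells lay above all 3 unstimulated arrays, and the tolerant and 6 h LPS arrays overlapped. The level in tolerant cells was 5.07-fold that in unstimulated cells, a log2 difference of 2.34 with a 95% interval of 1.74 to 2.94 (limma adjusted p = 0.000592). At 6 h it was 3.69-fold that in unstimulated cells, with an interval of 1.28 to 2.48 for the log2 difference (limma adjusted p = 0.0625, or 0.0243 with the replicate block and 0.0308 with both probe sets averaged). Between tolerant and 6 h LPS cells the log2 difference was 0.46, with an interval of -0.14 to 1.06 (limma adjusted p = 0.313). These arrays thus leave the size of any further change after LPS removal wide.

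The other Tnfaip3 probe set, 1450829_at, was dim. It read 4.64, 4.19 and 4.46 in tolerant, 4.11, 4.09 and 4.09 in 6 h LPS and 3.24, 2.66 and 3.72 in unstimulated cells, so its folds over unstimulated cells are bounds. These were at least 1.35-fold in tolerant cells (limma adjusted p = 0.0114) and at least 1.07-fold at 6 h (0.129, or 0.0384 with the block). Both probe sets of A20 thus ordered the conditions alike by their means. When all probe sets of the array with 1 symbol were tested singly, as for these p-values, 0.0540% were called at 6 h, 23.2% in tolerant against unstimulated and 10.8% in tolerant against 6 h LPS cells (18.5%, 45.3% and 27.7% with the block).

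Tnip1 and Tnip2 encode ABIN-1 and ABIN-2, ubiquitin-binding proteins that link A20 to its targets. Tnip1 read 9.10, 8.54 and 8.62 in tolerant, 8.07, 8.21 and 8.68 in 6 h LPS and 8.91, 8.45 and 8.48 in unstimulated cells. The 3 conditions overlapped. The log2 difference from unstimulated cells was 0.14 in tolerant cells (interval -0.39 to 0.67, limma adjusted p = 0.714) and -0.29 at 6 h (interval -0.82 to 0.24, limma adjusted p = 0.48). Tnip1, whose window holds the 12-base stretch shown above, passed no test with or without the block.

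Tnip2 lay at the level minimum. Its levels were 4.72, 3.99 and 4.76 in tolerant, 4.39, 3.79 and 4.0 in 6 h LPS and 3.98, 3.81 and 4.0 in unstimulated cells. All unstimulated arrays were, unrounded, below log2 4, so that tolerant cells were at least 1.41-fold higher, without passing the test (limma adjusted p = 0.122, or 0.0209 with the block). With each array left out in turn the adjusted p was 0.0436 to 0.333, and it passed without tolerant replicate 2, where the log2 difference was 0.82. At 6 h the bound was 1.04-fold (limma adjusted p = 0.771).

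Tax1bp1 encodes an adaptor that reads ubiquitin chains and brings A20 to them. It had log2 levels of 10.04, 10.16 and 10.04 in tolerant, 10.12, 10.40 and 9.72 in 6 h LPS and 8.88, 8.95 and 9.60 in unstimulated cells. Every LPS-exposed array lay above every unstimulated array, unstimulated replicate 3 being nearest to them. Tolerant cells had 1.92-fold the unstimulated level, a log2 difference of 0.94 (interval 0.39 to 1.49, limma adjusted p = 0.0207, or 0.0692 from replicates 2 and 3 only). At 6 h the difference was also 0.94 (interval 0.39 to 1.48, limma adjusted p = 0.115, or 0.035 with the block). Tolerant and 6 h LPS cells had the same mean of 10.08, with an interval of -0.55 to 0.55 for their difference (limma adjusted p = 0.999).

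The call of Tax1bp1 in tolerant cells also needed single arrays, with limma adjusted p between 0.0109 and 0.0811 when each array was left out in turn. It was lost without tolerant replicate 2 (0.075), tolerant replicate 3 (0.0598), unstimulated replicate 1 (0.067) or unstimulated replicate 2 (0.0811). It was also lost without the level minimum (0.053) and with all its probe sets averaged (0.0763). Of its other probe sets, 1420174_s_at was higher by 1.20 in tolerant cells (limma adjusted p = 0.0367) and by 1.12 at 6 h (0.135, or 0.0455 with the block). The dimmer 1420175_at was higher by 0.28 and 0.36 without passing (0.64 and 0.612), and 1442901_at lay below log2 4 on all arrays.

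Itch encodes a ligase of the NEDD4 family that A20 needs to switch off TNF signalling. Its brightest probe set read 8.70, 9.29 and 9.14 in tolerant, 9.02, 9.59 and 9.14 in 6 h LPS and 8.67, 8.60 and 9.07 in unstimulated cells, with overlap between all conditions. It passed no test, with log2 differences from unstimulated cells of 0.26 in tolerant cells (interval -0.26 to 0.78, limma adjusted p = 0.436) and 0.47 at 6 h (interval -0.05 to 0.99, limma adjusted p = 0.259). Its 3 dimmer probe sets had their highest means at 6 h. Probe set 1431316_at read 5.58, 5.26 and 4.91 in tolerant, 6.63, 6.70 and 5.60 in 6 h LPS and 5.25, 5.42 and 4.95 in unstimulated cells. All its 6 h LPS arrays lay above the other 6, by 1.10 over unstimulated cells (limma adjusted p = 0.128, or 0.0379 with the block), and tolerant cells were 1.06 lower than 6 h LPS cells (0.0703, or 0.00512 with the block). Probe set 1459332_at was 0.85 higher at 6 h than in unstimulated cells (limma adjusted p = 0.136), and 1440582_at was at least 1.23-fold higher at 6 h and was not tested.

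Rnf11 encodes a small RING protein found in the A20 complex together with Itch and Tax1bp1. Its log2 levels were 9.94, 10.27 and 10.31 in tolerant, 9.66, 9.73 and 9.70 in 6 h LPS and 9.19, 9.71 and 9.62 in unstimulated cells. The tolerant arrays lay above all others, and the 6 h LPS and unstimulated arrays overlapped. Tolerant cells had 1.59-fold the unstimulated level (log2 difference 0.67, interval 0.25 to 1.08, limma adjusted p = 0.0273). With each array left out in turn the adjusted p was 0.0259 to 0.102, and the call was lost without tolerant replicate 2 (0.102), tolerant replicate 3 (0.102) or unstimulated replicate 1 (0.0779). Tolerant cells were also 0.48 above 6 h LPS cells (interval 0.06 to 0.89, limma adjusted p = 0.132, or 0.0272 with the block). At 6 h the difference from unstimulated cells was 0.19 (interval -0.23 to 0.60, limma adjusted p = 0.562).

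The probe sets of Rnf11 did not all repeat that rise. Probe set 1452058_a_at was higher by 0.75 in tolerant cells (limma adjusted p = 0.294, or 0.0214 with the block), and 6 h LPS replicate 1 read 10.34 on it against 8.70 and 8.65 on the other 6 h LPS arrays. Probe set 1442048_at differed by 0.23 (0.394), and 1426405_at was near or below log2 4 on all arrays. At 6 h 1452058_a_at was higher than in unstimulated cells by 0.67 (limma adjusted p = 0.441, or 0.058 with the block) and 1442048_at by 0.19 (0.58). Their tolerant means lay only 0.09 and 0.05 above those at 6 h (limma adjusted p = 0.946 and 0.918).

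Cyld encodes the deubiquitinase that cuts non-degradative chains from NF-kappa-B signalling proteins. Its levels were 8.33, 8.65 and 8.42 in tolerant, 7.97, 8.21 and 7.68 in 6 h LPS and 7.15, 7.29 and 7.30 in unstimulated cells. The 3 conditions did not overlap, with tolerant arrays highest and unstimulated arrays lowest. The level in tolerant cells was 2.32-fold that in unstimulated cells (log2 difference 1.21, interval 0.81 to 1.62, limma adjusted p = 0.00195). At 6 h it was 1.63-fold that in unstimulated cells (difference 0.70, interval 0.30 to 1.11, limma adjusted p = 0.115, or 0.0319 with the block). Tolerant cells were 0.51 above 6 h LPS cells (interval 0.11 to 0.91, limma adjusted p = 0.101, or 0.0263 with the block). Probe set 1429617_at was higher by 1.19 in tolerant cells (limma adjusted p = 0.0227) and 1429201_at by 0.68 (0.0643, or 0.0111 with the block), and at 6 h they were 0.46 and 0.42 higher without passing (0.4 and 0.321). Tolerant cells were 0.73 above 6 h LPS cells on 1429617_at (0.175, or 0.0088 with the block). Probe set 1445213_at stayed between 2.26 and 2.29.

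Otud7b encodes Cezanne, a deubiquitinase of the OTU family to which A20 belongs. Its brightest probe set, 1435552_at, read 8.36, 8.34 and 8.40 in tolerant, 7.39, 7.34 and 7.37 in 6 h LPS and 7.25, 7.60 and 7.48 in unstimulated cells. The tolerant arrays stood clear of the others. The level in tolerant cells was 1.89-fold that in unstimulated cells (log2 difference 0.92, interval 0.59 to 1.25, limma adjusted p = 0.00266) and 2.0-fold that in 6 h LPS cells (difference 1.00, interval 0.67 to 1.33, limma adjusted p = 0.00271). At 6 h the difference from unstimulated cells was -0.08 (interval -0.41 to 0.25, limma adjusted p = 0.761).

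That rise was seen by 1 of the 4 probe sets of Otud7b, all 4 of which passed the level minimum. In tolerant against unstimulated cells 1428953_at differed by 0.11 (interval -0.26 to 0.48), 1429139_at by -0.06 (interval -0.74 to 0.61) and 1457716_at by -0.08 (interval -0.51 to 0.35). The intervals of 1428953_at and 1457716_at lie below that of 1435552_at, and that of 1429139_at overlaps it. With all probe sets of the gene averaged the difference was 0.22 and the call was lost (limma adjusted p = 0.229). Which stretch of the transcript each probe set reads is not analysed here.

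**Figure D2:**
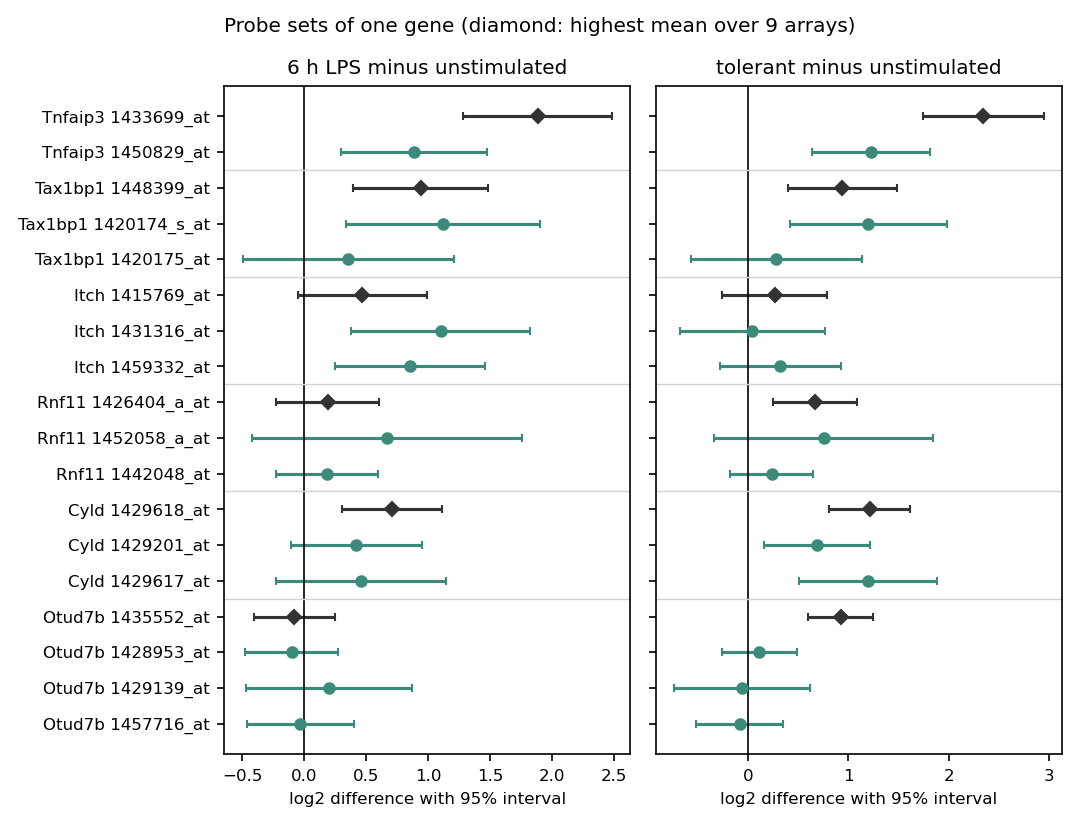
Log2 difference from unstimulated cells with its 95% interval for each probe set that passed the level minimum, for the 6 genes with several of them; diamonds mark the probe set with the highest mean, circles the others. Probe set 1435552_at of Otud7b stands alone at 0.92 in tolerant cells, and 1431316_at of Itch lies at 1.10 at 6 h but at 0.04 in tolerant cells.

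Neurl3 encodes LINCR, a ubiquitin ligase of the Neuralized family first described in mouse lung as an LPS-inducible gene. It read 3.02, 3.06 and 2.93 in tolerant, 4.93, 5.41 and 5.31 in 6 h LPS and 2.88, 2.54 and 2.54 in unstimulated cells on its single probe set. The 6 h LPS arrays were all above log2 4 and all the others below it. Levels at 6 h were thus at least 2.33-fold those in unstimulated cells (limma adjusted p = 0.000329) and tolerant levels at least 2.33-fold lower than those at 6 h (limma adjusted p = 0.00016). These p-values belong to the differences without a bound, measured partly below the level minimum. With all values below log2 4 set to log2 4, the log2 difference at 6 h was 1.22 and passed narrowly (limma adjusted p = 0.0473). Both calls held in each of the 18 alternatives in which the gene was tested. Between tolerant and unstimulated cells no fold is given, since both lay below the minimum.

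**Figure D3:**
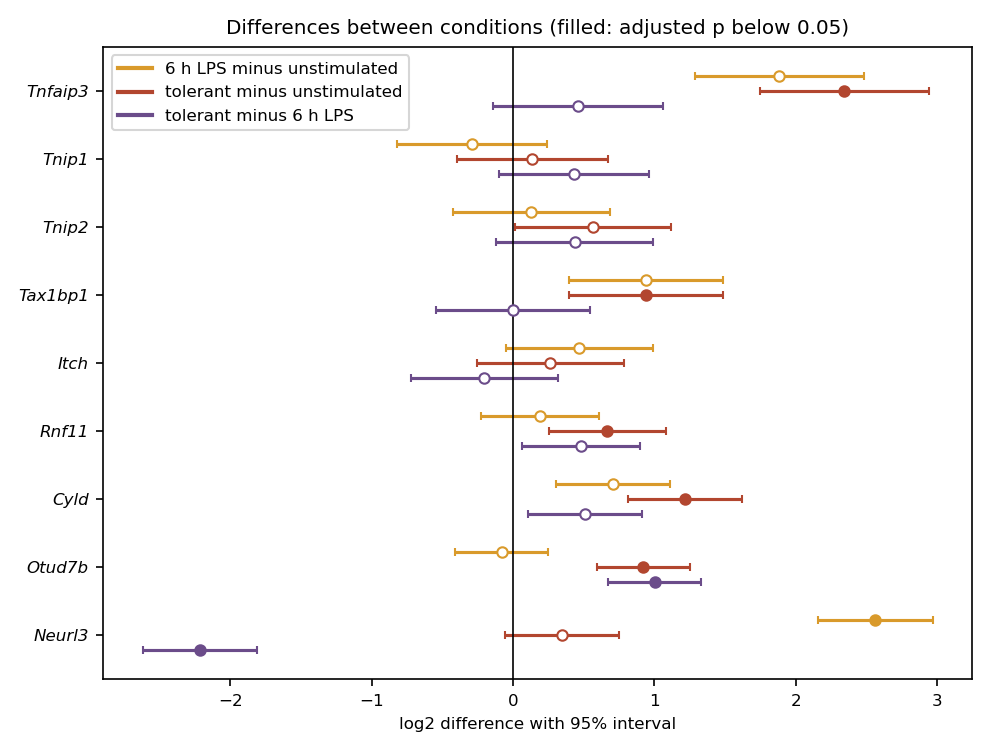
Log2 differences between conditions with 95% intervals from the limma fit; filled points passed at an adjusted p below 0.05. Neurl3 lies at 2.56 at 6 h and at -2.21 between tolerant and 6 h LPS cells, values measured partly below the level minimum. Tnfaip3, Cyld and Tax1bp1 lie at or above 0 in all 3 comparisons, and so do Rnf11 and Tnip2.

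Set side by side in tolerant against 6 h LPS cells, Neurl3 was at least 2.33-fold lower, a bound because its tolerant arrays all lay below log2 4. For Tnfaip3, Cyld and Tax1bp1 the intervals of the log2 difference were -0.14 to 1.06, 0.11 to 0.91 and -0.55 to 0.55. Whether Neurl3 differs from these genes was not tested, and the contrast is a description, since the genes were drawn together with it known. With the block, 4 of 9 genes were called at 6 h (all higher, against 11.6% of all tested genes), 6 of 9 in tolerant against unstimulated cells (all higher, against 22.7%), and 3 higher and 1 lower in tolerant against 6 h LPS cells (16.0% and 15.7%). From replicates 2 and 3 only, 1, 5 and 3 genes were called, against 0.0848%, 38.3% and 22.5% of all tested genes in either direction. Tax1bp1 was lost and Neurl3 gained in tolerant against unstimulated cells, and Rnf11 gained in tolerant against 6 h LPS cells. The gained call of Neurl3 rests on values that lay below log2 4 in both conditions, so it is not read as a rise.

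The count at 6 h rested on 6 h LPS replicate 3. Without that array 4 of 9 genes were called instead of 1, with adjusted p of 0.0232 for Tnfaip3, 0.0357 for Cyld and 0.04 for Tax1bp1. On that array Cyld and Tax1bp1 had the smallest excess over the same-numbered unstimulated array, 0.38 and 0.12, while Tnfaip3 had its largest, 2.72. In tolerant against unstimulated cells the count was 3 without tolerant replicate 3 and 3 without unstimulated replicate 1. In 6 of 9 genes all tolerant arrays lay above all unstimulated arrays, against 22.6% of all tested genes, and Neurl3 was 1 of these although below the level minimum in both. In 4 of 9 all 6 h LPS arrays lay above all unstimulated arrays, against 12.9%. Between tolerant and 6 h LPS arrays 3 genes were higher without overlap and 1 lower, against 15.9% and 15.4%. The median log2 difference of the 9 genes was 0.67 in tolerant against unstimulated cells, 0.47 in 6 h LPS against unstimulated cells and 0.43 in tolerant against 6 h LPS cells, beside -0.07, -0.11 and 0.01 over all tested genes.

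Over the 9 arrays Cyld ran most like Tax1bp1 (Pearson r = 0.86), Rnf11 (0.85) and Tnfaip3 (0.83), while Neurl3 correlated at 0.20 with Cyld and at -0.46 with Otud7b. Rnf11 and Otud7b correlated at 0.87. These values describe 9 arrays in 3 conditions, share the replicate 1 shift and carry no test.

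Among all other tested genes, those closest to Neurl3 over the 9 arrays were Cxcl5 (r = 0.975), Arpc5 (0.969), Atxn7 (0.969), Ogt (0.955) and Csf1 (0.954). All 5 had a higher mean at 6 h than in the other conditions, which follows from choosing them by their likeness to Neurl3. Of these only Cxcl5 passed at 6 h against unstimulated cells (limma adjusted p = 3.99e-05). Arpc5, Atxn7, Ogt and Csf1 did not pass (0.137, 0.109, 0.115 and 0.108). Cxcl5, a neutrophil chemokine, averaged log2 5.81 in tolerant, 11.95 in 6 h LPS and 5.87 in unstimulated cells, and Csf1, a macrophage growth factor, averaged 8.27, 9.08 and 8.25. Closest to Tnfaip3 were Yae1d1 (0.96), Mab21l3 (0.95), Lgals8 (0.947), Cog3 (0.946) and Nckap1 (0.933), and of these Mab21l3 had the widest range, with 7.67 in tolerant, 6.52 in 6 h LPS and 5.10 in unstimulated cells. Closest to Cyld were Ythdc2 (0.995), Arih1 (0.993), Trip12 (0.988), Rnf2 (0.986) and Naa15 (0.984). Arih1, Trip12 and Rnf2 are ubiquitin ligases, and their log2 means were 9.03, 10.70 and 8.80 in tolerant, 8.54, 10.31 and 8.29 in 6 h LPS and 7.82, 9.71 and 7.49 in unstimulated cells. Ythdc2 and Naa15 averaged 5.77 and 8.89 in tolerant, 5.22 and 8.43 in 6 h LPS and 4.39 and 7.39 in unstimulated cells. None of these 5 passed at 6 h (limma adjusted p = 0.115 to 0.119). All 5 passed as higher in tolerant against unstimulated cells (0.00105 to 0.0038), as did the 5 closest to Tnfaip3 (9.98e-05 to 0.0344), beside 14.0% of all tested genes. They were chosen by their likeness to genes called there, so these calls are only a description. The share of ligases among all tested genes was not counted. The choice of neighbours was loose: without 6 h LPS replicate 3, 0 of the 5 neighbours of Neurl3, 1 of those of Tnfaip3 and 3 of those of Cyld stayed among the 5 closest.

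The wider ubiquitin machinery of TNF and TLR signalling was described with 8 lists of 93 genes. Of these, 80 had a probe set of their own and 71 were tested. At 6 h 0 of the 71 passed limma's test, and 16 passed with the block (22.5%, against 24.0% of all tested genes). In tolerant against unstimulated cells 13 rose and 3 fell, 22.5% against 26.2% of all tested genes (46.5% against 48.6% with the block). In tolerant against 6 h LPS cells 3 rose, 4.23% against 13.1% (18.3% against 31.7% with the block). At an unadjusted p below 0.05, 2163 of all tested genes passed at 6 h, while 6 passed after adjustment. The median difference of tolerant from unstimulated cells was 0.03 over the 71, close to the -0.07 over all tested genes.

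Among the deubiquitinases of the pathway, 4 of 21 tested rose in tolerant against unstimulated cells and 1 fell, with a median of 0.13. Over all tested genes 14.0% rose and 12.2% fell. Usp15 was 2.77-fold higher, at log2 8.49 ± 0.15 in tolerant and 7.02 ± 0.40 in unstimulated cells (SD, n = 3 each; limma adjusted p = 0.00758). The OTU-family genes Yod1 (2.34-fold) and Otud4 (2.26-fold) also rose (limma adjusted p = 0.024 and 0.0168). In tolerant against 6 h LPS cells Otud1, another OTU deubiquitinase, rose 1.84-fold (0.0232). The gene that fell, Usp10, was 1.8-fold lower (0.0205) and is named although its change was not among the 3 largest.

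Of 6 tested genes of linear ubiquitin, the chain type made by the ligase complex LUBAC, 0 rose and 1 fell in tolerant against unstimulated cells. Over all tested genes 14.0% rose and 12.2% fell. With the block 1 rose and 1 fell, beside 48.6% of all tested genes called in either direction. Otulin, which cuts linear chains, was at 6.76 ± 0.16 in tolerant and 7.63 ± 0.31 in unstimulated cells (SD, n = 3 each; limma adjusted p = 0.0225). Its fall of 0.86 ran against the rise of Cyld, which also cuts linear chains.

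Ligases build the chains that the editors remove. Of 13 tested ligases 3 rose in tolerant against unstimulated cells, beside 14.0% of all tested genes, with a median of 0.39. Birc3 and Birc2, which encode the cellular inhibitor-of-apoptosis ligases, were 3.82-fold and 3.36-fold higher (limma adjusted p = 0.00105 and 0.000504), and Xiap was 2.1-fold higher (0.0351). At 6 h Birc3, Birc2 and Xiap were 1.27, 0.81 and 1.11 higher, passing only with the block (0.0297, 0.0319 and 0.0398). In tolerant against 6 h LPS cells Birc2 rose 1.91-fold (0.0133) and Trim25 1.65-fold (0.039).

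In the remaining lists few genes passed without the block, all in tolerant against unstimulated cells, where 14.0% of all tested genes rose. Of 8 kinase-complex genes 1 rose, Tab3, a chain-reading subunit of the TAK1 complex (2.81-fold, limma adjusted p = 0.0109). Of 6 conjugating-enzyme genes 2 rose, Ube2v2 (2.6-fold, 0.0478) and Ube2d3 (1.44-fold, 0.0482). Of 8 genes of the NEDD4 family, to which Itch belongs, and its adaptors, 1 rose, Wwp1 (2.52-fold, 0.0418).

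None of the tested relatives of Neurl3 passed at 6 h without the block. Of 3 tested Neuralized genes 0 rose and 1 fell in tolerant against unstimulated cells, where 14.0% of all tested genes rose and 12.2% fell. The gene that fell, Neurl2, lay below log2 4 on all tolerant arrays, at least 1.54-fold lower than in unstimulated cells (limma adjusted p = 0.00349). Of 6 tested ubiquitin readers and A20-binding relatives 2 rose, Azi2 (1.92-fold, 0.00538) and Tank (1.89-fold, 0.0159), adaptors of the kinase TBK1.

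**Figure D4:**
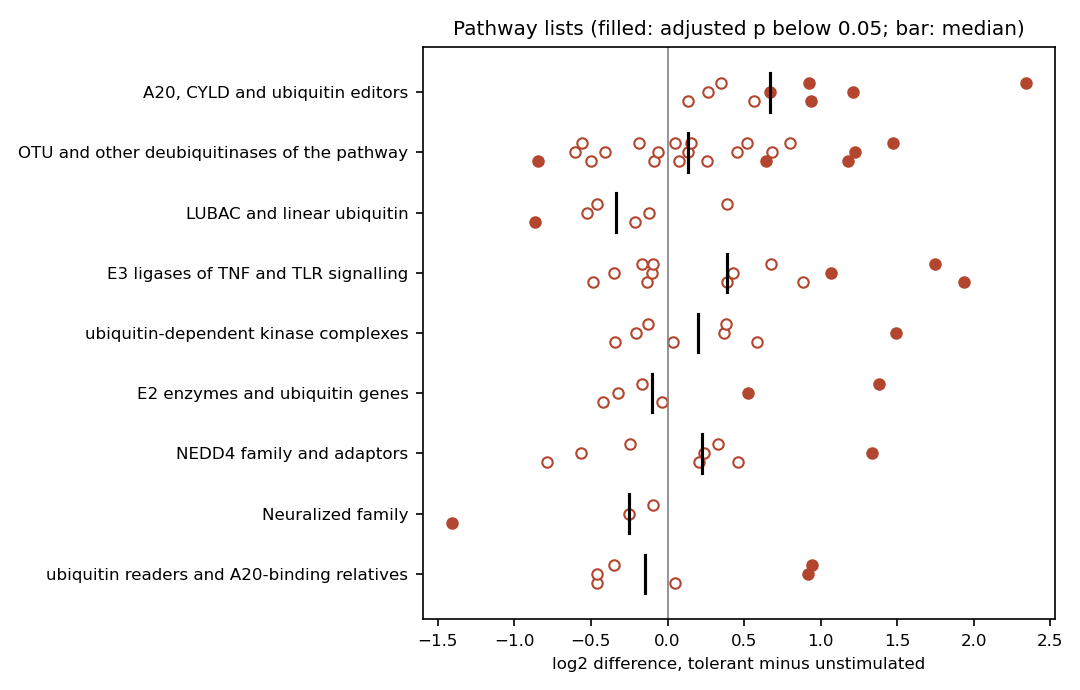
Log2 difference of tolerant from unstimulated cells for each tested gene of the A20, CYLD and ubiquitin-editor group and of the 8 pathway lists; filled points passed at an adjusted p below 0.05 and bars show medians. The median is 0.67 for the ubiquitin editors and between -0.34 and 0.39 for the lists; the group was drawn together with some of these values known.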

How the data were processed

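Total RNA of 9 m-ICcl2 cultures was biotin-labelled and hybridised to Affymetrix mouse arrays, per the labels' protocols. The authors deposited 1 intensity per probe set, linear and not logged, and the submitters' processing notes name GCRMA, without a version. By design that method models background from probe sequence and equalises arrays, which compresses dim values toward a floor. The lowest value was 2.22 to 2.25 per array.

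With no pseudocount added, log2 of the values was taken in R 4.3.3 with limma 3.58.1. Of 45101 probe sets, 34945 carried 1 gene symbol in the platform annotation, 932 several and 9160 none; 64 were controls. No probe set was shared between a gene of the group and another gene, and all 9 genes matched RefSeq by gene identifier. One mean per condition was fitted over 9 arrays (6 residual degrees of freedom), with eBayes without trend, two-sided moderated tests and Benjamini-Hochberg adjustment over 9431 genes in each of 3 comparisons, threshold 0.05. Other probe sets were adjusted over all probe sets tested singly. The steps were tested on simulated data. Precision is limited by the number of arrays.

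Deviations from the condition means correlated across genes between arrays sharing a number (0.157 to 0.844), which met the rule for pairing, but differently numbered arrays of replicates 2 and 3 did so too (0.214 to 0.731), and arrays of replicate 1 ran against those of replicates 2 and 3 (-0.743 to -0.375). Deviations from a condition mean cancel within the condition, so a shift of replicate 1 alone gives this pattern. These correlations therefore cannot decide whether the arrays are paired. The number is used as a block in an alternative, because no method text states a block. The labels do not say what a number shares.

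The genes, lists, markers and the rule for named genes were chosen with earlier results of these arrays known. The rule names all 9 genes, at most 3 called genes per list and comparison with the largest change, and the 5 genes most correlated with Tnfaip3, Neurl3 and Cyld, clone-like symbols left out. No single-gene probe set was available for 13 listed genes, which are not analysed here. Alternatives covered the filter, the choice of probe set, normalization, a floor, the eBayes trend, separate fits, the block, replicates 2 and 3 only, and each array left out.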

Additional observations from a re-analysis of the deposited data

How the results depend on the processing

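Each of 27 differences, 9 genes in 3 comparisons, was recomputed under up to 19 alternatives. None of the 8 that passed changed direction under those run, and the calls of Tnfaip3 and Cyld in tolerant against unstimulated cells and both of Neurl3 held in all of them. The count of genes called at 6 h, 1, became 4 with the replicate block, 2 with all probe sets of a gene averaged and 0 with a filter at log2 5, which leaves Neurl3 out; with 1 array left out it was 1 to 4. In tolerant against unstimulated cells the count of 5 became 3 with probe sets averaged, where Otud7b and Tax1bp1 were lost, 4 without a filter, where Tax1bp1 was lost, and 3 to 5 with 1 array left out; the block gave 6. In tolerant against 6 h LPS cells the count of 2 became 4 with the block, 1 with probe sets averaged and 1 with the filter at log2 5. For the 9 genes the block changed no call beyond those given beside each. Differences that changed sign had not passed: Tnip2 at 6 h (-0.038 after quantile normalization, -0.009 from replicates 2 and 3, -0.036 to 0.264 with 1 array left out), Tnip1 in tolerant cells (-0.035 to 0.286 with 1 array left out) and Tax1bp1 between tolerant and 6 h LPS cells (-0.042 after quantile normalization, -0.181 to 0.162 with 1 array left out); the cause was not tested.

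The pathway lists, 0, 16 and 3 genes called at 6 h, in tolerant against unstimulated and in tolerant against 6 h LPS cells, gave 16, 33 and 13 with the block. Without a filter 9 were called in tolerant against unstimulated cells, where more genes were tested, and from replicates 2 and 3 only 6 in tolerant against 6 h LPS cells. With 1 array left out the ranges were 0 to 6 (6 without 6 h LPS replicate 3), 6 to 19 (6 without tolerant replicate 2 or 3, 7 without unstimulated replicate 2 and 8 without unstimulated replicate 1) and 0 to 3 (0 without tolerant replicate 3, and 1 without tolerant replicate 2, 6 h LPS replicate 1 or 6 h LPS replicate 2). Of the 5 neighbours of Tnfaip3, Neurl3 and Cyld, 1, 3 and 2 stayed with each replicate number's mean subtracted (the replicate block), and 1 to 5, 0 to 5 and 2 to 5 with 1 array left out; the left-out fits and those on replicates 2 and 3 for the lists and neighbours were chosen after seeing the data. Signal near the floor limits Neurl3, Tnip2 and the dim probe sets, and 3 arrays a condition limit the rest.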
